A study of Mus musculus with 8 samples.

Results

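A set of 10 genes that are read as signs of epithelial or mesenchymal identity was followed in Hepa 1-6, an established mouse hepatoma line, in cells labelled as a knockout of the histone methyltransferase G9a and in wild-type cells. The 10 genes were Epcam, the cadherin genes Cdh1 and Cdh2, the keratin genes Krt7, Krt8, Krt18 and Krt19, the vimentin gene Vim, and the repressor genes Snai2 and Zeb1. They were picked by name for their roles, with earlier results of these data known, out of 47434 genes with counts per gene. Poly-A RNA was sequenced in 4 libraries of G9a-knockout Hepa 1-6 cells and in 4 libraries of wild-type Hepa 1-6 cells, with no other treatment on the labels. How the knockout was made, and from how many clones or separate cultures the libraries came, is not given in the sources used here, so the p-values here speak of the spread over these libraries alone, which could be technical.

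Library totals lay between 58256100 and 75025236 counts. Ehmt2, which encodes G9a, averaged 118 ± 1.55 CPM in knockout libraries and 314.2 ± 21.3 CPM in wild-type libraries (SD, n = 4 each), where CPM are counts per 1000000 after TMM normalization, a scaling that aligns the bulk of genes between libraries. Its log2 fold change, knockout minus wild type, was -1.41 ± 0.05 (SE; edgeR quasi-likelihood test, adjusted p = 3.82e-10). The table has counts per transcript, which show neither the edited bases nor the protein, so what the remaining Ehmt2 RNA encodes was not measured. The labels call the cells liver cancer cells, but of 8 hepatocyte markers 5 had 0 counts in every library, among them Alb, Ttr and Hnf4a, and the 8 together summed to 0.673 to 1.49 CPM in knockout and 0.696 to 1.52 CPM in wild-type libraries. Apoa2, the 1 of these that was tested, had 0.885 ± 0.277 CPM in knockout and 0.996 ± 0.394 CPM in wild-type libraries and did not pass. Of 5 T and B cell markers, Cd3e and Cd4 were among those at 0, and the sum was 0.196 to 0.419 CPM in knockout and 0.174 to 0.375 CPM in wild-type libraries. Of 5 macrophage markers, Adgre1 was at 0, Ptprc was higher (1.08 ± 0.077 CPM in knockout and 0.437 ± 0.0459 CPM in wild-type libraries, adjusted p = 0.000984) and the sum was 8.11 to 9.38 CPM in knockout and 5.45 to 9.6 CPM in wild-type libraries. Cd68, another macrophage marker, was at 6.7 ± 0.426 CPM in knockout and 5.41 ± 0.97 CPM in wild-type libraries and did not pass the test. Csf1r, a further macrophage marker, lay the other way, at 0.715 ± 0.411 CPM in knockout and 1.38 ± 0.787 CPM in wild-type libraries. It did not pass either.

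Epithelial cells are held together by E-cadherin (Cdh1) at adherens junctions and by the adhesion molecule Epcam, and their inner scaffold is built of keratins that assemble as pairs of a type I and a type II chain. Mesenchymal cells carry N-cadherin (Cdh2) and a vimentin scaffold instead, and the zinc-finger repressors Snai2 and Zeb1 drive the transition by binding E-box motifs in the promoters of epithelial genes. In liver, mature hepatocytes hold the Krt8 and Krt18 pair and both E- and N-cadherin, while bile duct and progenitor cells add Krt7, Krt19 and Epcam. G9a methylates lysine 9 of histone H3, and in human breast cancer cells it has been found to act with a repressor of the Snail family at the E-cadherin promoter.

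Of the 10 identity genes, 3 passed the test and 5 did not, while Cdh1 and Krt7 had too few counts to be tested. Epcam was 3.79-fold lower and Snai2 1.71-fold lower in the knockout, and Krt8 was 11% higher. Cdh2, Vim, Krt18, Krt19 and Zeb1 did not pass an adjusted p of 0.05. These counts stand beside a broad response: among 15840 genes tested, 3742 (23.6%) were called higher and 3734 (23.6%) lower, so 1 higher and 2 lower of 8 is near that background. The groups of 4 did not overlap for Epcam, Snai2, Krt8 and Cdh2, 4 of 8, against 43.9% of all genes tested. The median log2 fold change of the 8 tested genes was -0.03, beside 0.004 over all genes tested.

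The levels of the 10 genes spanned a wide range and kept much the same order in both groups. On a length-scaled level, TPM (transcripts per 1000000 after division of each count by the length of its transcript), Vim stood first, at 2047.1 ± 53.1 TPM in knockout and 1908.3 ± 74.8 TPM in wild-type libraries (SD, n = 4 each), which ranked 61 in the knockout and 72 in the wild type among 21792 protein-coding genes. Krt8 followed at 833.5 ± 29.5 TPM in knockout and 714.4 ± 30.8 TPM in wild-type libraries, and Krt18 at 673.6 ± 21 TPM in the knockout and 660.3 ± 12.5 TPM in the wild type. Both mesenchymal and simple-epithelial filament genes were thus among the most abundant RNAs of these cells. Krt19 averaged 67.3 ± 3.21 TPM in knockout and 65.8 ± 2.66 TPM in wild-type libraries, Cdh2 44.3 ± 2.56 TPM in the knockout and 39.5 ± 0.654 TPM in the wild type, and Zeb1 17.8 ± 1.09 TPM in the knockout and 17.2 ± 1.81 TPM in the wild type. Epcam was at 1.23 ± 0.402 TPM in knockout and 4.48 ± 0.469 TPM in wild-type libraries, and Snai2 at 1.24 ± 0.239 TPM in the knockout and 2.02 ± 0.224 TPM in the wild type. In wild-type libraries the Epcam level lay above that of Snai2 without overlap, while in knockout libraries the levels of these neighbors in the order overlapped. Cdh1 was at 0.0465 TPM in knockout and 0.0545 TPM in wild-type libraries on average, with 0 in 3 of the 8, and Krt7 was at 0 in all of them, so the order of those last genes was not resolved.

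**Figure D1:**
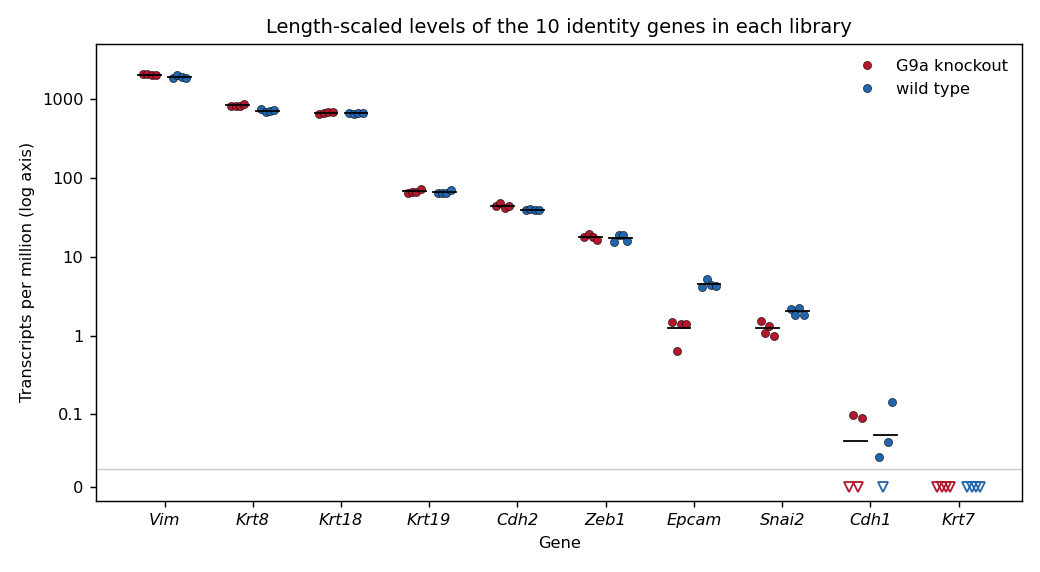
Levels of the 10 identity genes in each library, in TPM on a log axis, with open triangles for libraries at 0. Red points are the 4 G9a-knockout libraries and blue points the 4 wild-type libraries, each group with a bar at its mean; Epcam (1.23 TPM in the knockout, 4.48 TPM in the wild type) and Snai2 (1.24 TPM in the knockout, 2.02 TPM in the wild type) sit low and apart, and Krt7 is at 0 in all libraries.

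Epcam showed the largest change of the 8 genes tested. The gene (ENSMUSG00000045394; GRCm38 chromosome 17, 87635979 to 87651129, plus strand) encodes an adhesion molecule of the epithelial surface that in liver marks bile duct and progenitor cells. Its normalized counts were 1.48, 0.607, 1.43 and 1.44 CPM in knockout libraries, against 4.31, 5.42, 4.61 and 4.51 CPM in wild-type libraries. Each knockout library lay below each wild-type library, and knockout replicate 2 was the lowest of all. The means were 1.24 ± 0.423 CPM in the knockout and 4.71 ± 0.488 CPM in the wild type (SD, n = 4 each), and the log2 fold change was -1.92 ± 0.24 (SE; 95% interval -2.44 to -1.41; edgeR, adjusted p = 1.97e-05). The values rest on 42 to 114 counts per knockout library and 264 to 358 per wild-type library, all on the single annotated transcript. In bulk RNA, fewer cells of a type and less RNA per cell cannot be told apart.

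Genes that work with Epcam at the cell surface did not move one way. Of 15 genes in a list of Epcam partners and other epithelial surface genes, 10 were tested, 4 were higher and 4 lower. The median log2 fold change was 0.10, and Epcam itself is 1 of the 4 lower. Over all genes tested, 23.6% were called higher and 23.6% lower, the share to set beside this list and those below. Spint1, an inhibitor of the protease that cleaves Epcam, fell to 1.89 ± 0.578 CPM in knockout libraries, against 7.83 ± 1.01 CPM in wild-type libraries (log2 fold change -2.05 ± 0.19, adjusted p = 1.64e-06). Its 20 nearest tested genes on each side on chromosome 2 also had a lower median, -0.68 on the same log2 scale. The progenitor surface gene Cd24a had 2.26 ± 0.312 CPM in knockout and 4.39 ± 0.467 CPM in wild-type libraries (-0.96 ± 0.15, adjusted p = 0.000148). The hyaluronan receptor gene Cd44 had 327.1 ± 16.2 CPM in knockout and 456.5 ± 32.7 CPM in wild-type libraries (-0.48 ± 0.06; median of its chromosome 2 neighbors -0.34). Muc1, a mucin of the apical surface, was higher, at 2.42 ± 0.169 CPM in knockout and 1.09 ± 0.222 CPM in wild-type libraries (2.22-fold higher, adjusted p = 0.000336).

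Among 15 biliary and progenitor genes, a list that shares Epcam, Krt7, Krt19 and Cd24a with the groups above, 7 were tested. Of the 7, 2 were higher and 4 lower (median log2 fold change -0.52), beside 23.6% of all tested genes in each direction. The water channel gene Aqp1 reached 75.7 ± 1.71 CPM in knockout libraries, against 14.5 ± 0.899 CPM in wild-type libraries (2.38 ± 0.06, adjusted p = 8.46e-12), and osteopontin (Spp1) reached 670.6 ± 25.4 CPM in the knockout, against 343.4 ± 27.9 CPM in the wild type (0.97 ± 0.06; median of its chromosome 5 neighbors 0.56). Sox9, a transcription factor of bile duct cells, fell to 4.79 ± 0.565 CPM in knockout libraries, against 7.54 ± 0.368 CPM in wild-type libraries (-0.65 ± 0.11). Duct and progenitor genes therefore differed in direction from each other, with Epcam and Sox9 lower, Aqp1 and Spp1 higher, and Krt19 not past the threshold.

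Of the 3 keratin genes in the set with counts, Krt8 passed the test, and Krt18 and Krt19 did not. Krt8 (ENSMUSG00000049382; chromosome 15, 101996698 to 102004482, minus strand), the type II chain of simple epithelia, had 784.0, 762.5, 802.5 and 853.6 CPM in knockout libraries, against 746.5, 679.6, 719.0 and 739.2 CPM in wild-type libraries. All 4 knockout libraries were above all 4 wild-type libraries, by a narrow margin. The log2 fold change was 0.15 ± 0.05 (95% interval 0.05 to 0.25; adjusted p = 0.0149), on 44905 to 60899 counts per library. Without knockout replicate 4, the highest library, the adjusted p was 0.0589. A processed pseudogene on chromosome 7, Krt8-ps, took 43 to 87 counts per library.

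Krt18 (ENSMUSG00000023043; chromosome 15, 102028180 to 102032027, plus strand) is the type I partner of Krt8 and lies beside it in the genome, on the other strand. It had 458.2, 446.9, 502.0 and 493.1 CPM in knockout libraries, against 493.4, 474.9, 495.9 and 492.2 CPM in wild-type libraries. The groups overlapped, and the log2 fold change was -0.04 ± 0.05 (95% interval -0.14 to 0.06; adjusted p = 0.486). Within each library, the ratio of Krt8 to Krt18 in TPM was 1.26, 1.25, 1.17 and 1.27 in the knockout, against 1.11, 1.05, 1.06 and 1.1 in the wild type. This ratio does not depend on how libraries are scaled to each other, and the groups did not overlap (means 1.24 ± 0.0438 in the knockout and 1.08 ± 0.0292 in the wild type).

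Krt19 (ENSMUSG00000020911; chromosome 11, 100140810 to 100148665, minus strand), a type I keratin of ducts and progenitors, was between 49.0 and 56.4 CPM in knockout libraries and between 51.2 and 56.8 CPM in wild-type libraries. Its log2 fold change was -0.03 ± 0.06 (95% interval -0.16 to 0.09; adjusted p = 0.662). The summed TPM of Krt8 and Krt18 was 22.4 ± 0.462 times that of Krt19 in knockout libraries and 20.9 ± 0.846 times in wild-type libraries, with overlap. Krt7 (ENSMUSG00000023039; chromosome 15, 101411043 to 101430313, plus strand), the type II keratin that pairs with Krt19 in bile ducts, had 0 counts on each of its 5 transcripts in all libraries. A count of 0 allows up to 3 counts, which is 0.04 to 0.0515 CPM of a library total and covers counting error only. Ductal Krt19 was thus read without detectable RNA of its ductal partner, at the depth of these libraries.

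**Figure D2:**
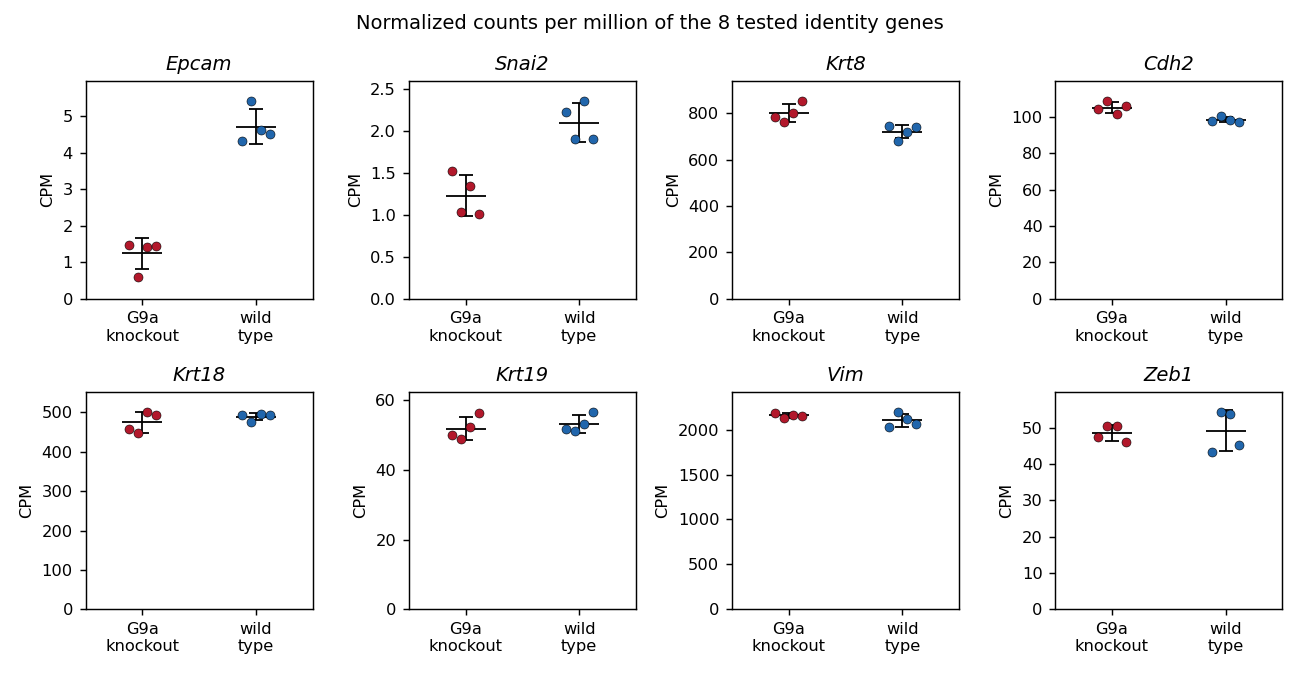
Normalized counts (CPM) of the 8 tested identity genes, with G9a-knockout libraries at left and wild-type libraries at right in each panel, each axis starting at 0. Bars show the mean and SD of 4 libraries; Epcam, Snai2, Krt8 and Cdh2 have groups that do not overlap, while Krt18, Krt19, Vim and Zeb1 overlap.

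Over the whole keratin family the same few chains dominated in both groups. Of the summed TPM of 53 keratin genes, Krt8 made up 50.5% ± 0.763 in knockout and 46.7% ± 0.575 in wild-type libraries, and Krt18 40.9% ± 0.861 in the knockout and 43.2% ± 0.653 in the wild type, both without overlap. Krt19 held 4.08% ± 0.0849 in knockout and 4.31% ± 0.165 in wild-type libraries. Krt76, a type II keratin known from the palate, held 3.32% ± 0.164 in knockout and 4.67% ± 0.0903 in wild-type libraries. It fell to 62 ± 3.49 CPM in knockout libraries, against 85 ± 3.1 CPM in wild-type libraries (log2 fold change -0.46 ± 0.05, adjusted p = 1.14e-05). Of 28 type I genes 11 were tested, 2 were higher and 9 did not pass, and of 26 listed type II genes 4 were tested, with Krt8 higher and Krt76 and Krt79 lower. The median log2 fold change was 0.42 over the tested type I genes and -0.32 over the tested type II genes.

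The other keratin changes were in genes with few counts. Krt17, a keratin of skin appendages and stressed epidermis, had 0.884, 1.33, 0.841 and 1.09 CPM in knockout libraries, against 0, 0.106, 0 and 0 CPM in wild-type libraries (adjusted p = 0.0001). Krt16, often induced with it in skin, had 0.688 ± 0.304 CPM in knockout and 0.282 ± 0.0896 CPM in wild-type libraries (1.29 ± 0.44, adjusted p = 0.0275), and lost the call without knockout replicate 1 or 4, without wild-type replicate 3 or 4, or with a replicate block (adjusted p 0.0542 to 0.103). Krt79 had 0 counts in the knockout libraries and 102 summed over the wild-type libraries, at least 34.4-fold lower in the knockout when 3 counts over the group are taken as the floor. Of 5 keratinocyte markers, Krt5, Krt1 and Trp63 were at 0 in all libraries, and the 5 summed to 2.46 to 3.38 CPM in knockout and 2.9 to 3.67 CPM in wild-type libraries. Nearly all of that sum was Krt10, at 2.72 ± 0.416 CPM in knockout and 3.13 ± 0.408 CPM in wild-type libraries. Krt14 was at 0.143 ± 0.105 CPM in knockout and 0.0643 ± 0.129 CPM in wild-type libraries, and neither passed the test.

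The promoters of 4 epithelial genes are shown because Snai2 and Zeb1 recognise E-boxes of the form CAGGTG, which read CACCTG on the other strand, and because Krt8 and Krt18 lie side by side yet gave different calls. They are the epithelial genes of the set that had a RefSeq window. Cdh1 and Krt19 had none and are not shown. Each window, from RefSeq on GRCm38.p6, runs 5′ to 3′ on the strand of the gene from 250 bases before the RefSeq start to 50 after. Distances are from that start, which for Krt7, Krt8, Krt18 and Vim lies inside the gene bounds given here, not at their edge. Capitals mark that E-box on either strand and, on the strand of the gene alone, TATAAA. No marked motif overlaps another.
Epcam: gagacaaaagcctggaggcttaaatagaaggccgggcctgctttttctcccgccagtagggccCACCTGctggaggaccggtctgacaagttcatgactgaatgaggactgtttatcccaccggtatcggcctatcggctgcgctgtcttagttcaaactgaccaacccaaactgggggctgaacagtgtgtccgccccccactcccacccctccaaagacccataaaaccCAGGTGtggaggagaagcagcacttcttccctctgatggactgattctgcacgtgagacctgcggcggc
Krt7: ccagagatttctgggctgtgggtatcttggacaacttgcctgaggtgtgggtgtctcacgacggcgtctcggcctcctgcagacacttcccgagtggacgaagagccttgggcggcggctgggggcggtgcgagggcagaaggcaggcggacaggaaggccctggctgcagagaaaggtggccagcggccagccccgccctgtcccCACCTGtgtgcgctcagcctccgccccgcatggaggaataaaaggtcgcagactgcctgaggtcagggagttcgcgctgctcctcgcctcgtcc
Krt8: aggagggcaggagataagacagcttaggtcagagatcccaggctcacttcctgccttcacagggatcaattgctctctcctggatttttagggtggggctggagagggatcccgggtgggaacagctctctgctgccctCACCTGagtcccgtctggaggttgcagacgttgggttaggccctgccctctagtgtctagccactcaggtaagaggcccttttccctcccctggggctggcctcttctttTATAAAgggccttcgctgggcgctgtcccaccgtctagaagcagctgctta
Krt18: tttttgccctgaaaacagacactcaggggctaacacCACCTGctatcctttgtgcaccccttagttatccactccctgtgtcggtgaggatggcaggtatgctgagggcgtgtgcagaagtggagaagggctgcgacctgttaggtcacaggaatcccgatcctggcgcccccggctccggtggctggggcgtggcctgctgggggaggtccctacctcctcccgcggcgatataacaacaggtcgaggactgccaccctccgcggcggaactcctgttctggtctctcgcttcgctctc
The Epcam window, chr17:87635729-87636028 on the plus strand, holds 2 E-boxes, 187 and 19 bases before the start. The Krt7 window, chr15:101412153-101412452 on the plus strand, holds 1, 44 bases before the start. Krt8 has 1 at 111 bases before the start and a TATAAA 1 base before it, in chr15:102004293-102004592 on the minus strand, and Krt18 has 1 at 214 bases before the start, in chr15:102027966-102028265 on the plus strand. Of 32851 mouse windows of the same length, 20.2% hold that E-box on either strand and 8.32% hold TATAAA. The Vim window, chr2:13574061-13574360 on the plus strand, holds none of those E-boxes and a TATAAA 32 bases before the start. The looser form CANNTG, which contains both E-box spellings, is in 72.3% of windows. Dinucleotides CG, the sites of DNA methylation, number 11 in the Epcam, 21 in the Krt7, 6 in the Krt8, 17 in the Krt18 and 11 in the Vim window, against a median of 7. The motifs describe letters in a window and are no evidence of binding. Epcam, lower in the knockout, Krt8, higher, Krt18, not past the threshold, and Krt7, at 0 counts, all have such an E-box in their window.

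Genes of proteins that tie keratins and vimentin to junctions changed in both directions. Of 9 linker genes analysed, 8 were tested. Of the 8, 3 were higher and 2 lower (median log2 fold change 0.02), beside 23.6% of all tested genes in each direction. Desmoplakin (Dsp), which anchors keratin filaments at desmosomes, fell to 53.4 ± 6.53 CPM in knockout libraries, against 82.6 ± 3.81 CPM in wild-type libraries (-0.63 ± 0.08, adjusted p = 1.65e-05). Periplakin (Ppl) was higher, at 56.1 ± 5.66 CPM in knockout and 46.5 ± 3.42 CPM in wild-type libraries (0.27 ± 0.08, adjusted p = 0.00899). The keratin-binding genes Tchp (0.25 ± 0.09) and Fbf1 (-0.20 ± 0.07) passed narrowly, with adjusted p of 0.0376 and 0.0432. Both lay near the medians of their neighbors, 0.31 on chromosome 5 for Tchp and -0.16 on chromosome 11 for Fbf1. Tchp lost the call without knockout replicate 2 or 4 or wild-type replicate 2, 3 or 4, among 8 alternatives with adjusted p of 0.0529 to 0.885. Fbf1 lost it without any library but knockout replicate 2 and wild-type replicate 3, among 11 alternatives with adjusted p of 0.0521 to 0.237, and with protein-coding transcripts only its sign turned, to 0.18 ± 0.13 (adjusted p = 0.28). Of 13 desmosome genes 6 were tested. Of the 6, 1 was higher and 4 lower (median -0.23), Dsp among the lower, beside 23.6% of all tested genes in each direction. Perp, a desmosome gene under p53, fell to 0.0354 ± 0.0441 CPM in knockout libraries, against 1.07 ± 0.438 CPM in wild-type libraries (-4.83 ± 0.72). The plakophilin genes Pkp4 (-0.29 ± 0.05) and Pkp2 (-0.17 ± 0.05) fell less, and the median of the chromosome 2 neighbors of Pkp4 was -0.26. Pkp2 lost the call without knockout replicate 3 and with 2 of the other scalings (adjusted p 0.057 to 0.187).

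The cadherin pair that is usually read as the epithelial to mesenchymal switch stood almost wholly on the side of N-cadherin in both groups. Cdh1 (ENSMUSG00000000303; chromosome 8, 106603351 to 106670246, plus strand) had 0, 14, 0 and 14 counts in knockout libraries, against 4, 0, 7 and 21 counts in wild-type libraries, all on 1 of its 3 transcripts. The sums were 28 counts in the knockout and 32 in the wild type, and 3 of the 8 libraries held none. With every gene of at least 1 read in the fit, its log2 fold change was -0.32 ± 1.37 (95% interval -3.33 to 2.70; edgeR, adjusted p = 0.905), an interval that leaves large changes either way undetectable at this level.

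Cdh2 (ENSMUSG00000024304; chromosome 18, 16588877 to 16809246, minus strand) had 104.4, 108.8, 101.3 and 105.8 CPM in knockout libraries, against 97.7, 100.2, 98.5 and 97.4 CPM in wild-type libraries. The groups did not overlap, but the difference was small, a log2 fold change of 0.09 ± 0.04 (95% interval 0.00 to 0.19), and it missed the threshold (edgeR, adjusted p = 0.0894). It passed with DESeq2 (adjusted p = 0.0458), with library totals alone as the scaling (0.0051), with upper-quartile scaling (0.00982) and with genes of at least 5 CPM (0.0178). At least 99.7% of the Cdh2 counts of each library were on Cdh2-201.

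Cdh2 made up a smaller share of cadherin RNA in the knockout, where Cdh13 made up a larger one. Of the summed TPM of 23 classical and related cadherin genes, Cdh2 made up 63.1% ± 0.524 in knockout libraries and 79.8% ± 1.85 in wild-type libraries, and Cdh13 25.6% ± 0.754 in the knockout and 8.91% ± 0.989 in the wild type. Cdh1 held 0.0641% in knockout and 0.112% in wild-type libraries on average. The sum itself was larger in the knockout, at 70.2 ± 4.18 TPM, against 49.5 ± 1.4 TPM in the wild type, without overlap. Cdh2 alone averaged 44.3 TPM in knockout and 39.5 TPM in wild-type libraries, so its smaller share was not a lower level. Of these 23, 7 were tested, 4 were higher and 3 did not pass, beside 23.6% of all tested genes called higher. The median log2 fold change of the 7 was 0.92. Cdh13, T-cadherin, which is held to the membrane by a lipid anchor, had 31.9, 34.6, 32.9 and 31.4 CPM in knockout libraries, against 8.76, 7.66, 9.2 and 7.29 CPM in wild-type libraries (1.99 ± 0.08, adjusted p = 1.24e-09). Cdh17, the liver-intestine cadherin, had 1.8 ± 0.47 CPM in knockout and 0.536 ± 0.161 CPM in wild-type libraries (1.75 ± 0.29). Cdh23, known from the tip links of hair cells, had 0.397 ± 0.0964 CPM in knockout and 0.093 ± 0.073 CPM in wild-type libraries (2.08 ± 0.66) and lost the call without knockout replicate 1 (adjusted p = 0.0662) or with all genes of at least 1 read (0.0537). Cdh5, the cadherin of endothelial cells, had 4.32 ± 0.46 CPM in knockout and 2.28 ± 0.314 CPM in wild-type libraries (0.92 ± 0.15). It was the 1 gene of 5 endothelial markers that passed; the 5 summed to 4.79 to 6.41 CPM in knockout and 2.45 to 4.25 CPM in wild-type libraries, with Vwf at 0.42 ± 0.206 CPM in the knockout and 0.6 ± 0.379 CPM in the wild type.

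**Figure D3:**
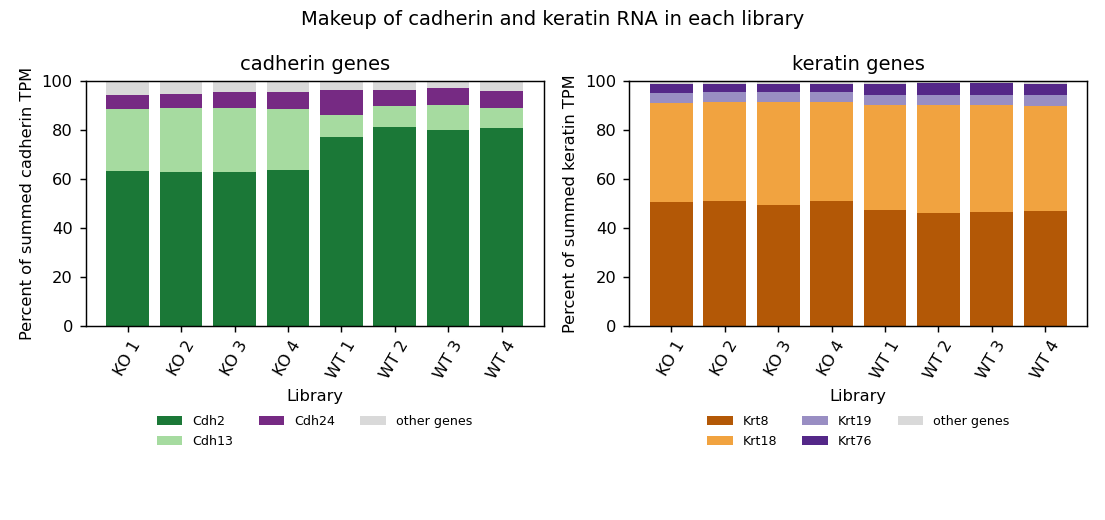
Makeup of cadherin RNA (left) and keratin RNA (right) in each library, as percent of the TPM summed over 23 cadherin and 53 keratin genes, with the 4 G9a-knockout libraries (KO) left of the 4 wild-type libraries (WT). Cdh2 makes up 63.1% in the knockout and 79.8% in the wild type on average, with Cdh13 at 25.6% in the knockout and 8.91% in the wild type. The summed cadherin TPM averages 70.2 in the knockout and 49.5 in the wild type. Krt8 and Krt18 make up most keratin RNA in all libraries.

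Genes of the catenins that bind cadherin tails were lower where they changed. Of 15 adherens junction genes 13 were tested. Of the 13, 3 were higher and 5 lower (median log2 fold change -0.19), beside 23.6% of all tested genes in each direction. Ctnnd1, p120-catenin, which keeps cadherins at the surface, fell to 231.8 ± 8.86 CPM in knockout libraries, against 404.7 ± 9.32 CPM in wild-type libraries (-0.80 ± 0.04, adjusted p = 8.75e-09). It lies in a stretch of chromosome 2 whose nearest tested genes had a median of -0.58. Beta-catenin (Ctnnb1) had 539.0 ± 10 CPM in knockout and 625.5 ± 7.19 CPM in wild-type libraries (-0.21 ± 0.04; adjusted p = 0.000243, and 0.136 with protein-coding transcripts only), and the polarity gene Pard3 67.7 ± 5.84 CPM in the knockout and 87 ± 3.03 CPM in the wild type (-0.36 ± 0.06). Afadin (Afdn), which links nectins to actin, was higher (0.25 ± 0.05, adjusted p = 0.00126).

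Of 27 tight junction genes, 15 were tested, 5 were higher, 1 was lower and 9 did not pass (median log2 fold change 0.10), beside 23.6% of all tested genes called in each direction. Cgnl1, a junction adaptor, reached 53.5 ± 4.45 CPM in knockout libraries, against 25.6 ± 1.31 CPM in wild-type libraries (1.06 ± 0.07, adjusted p = 4.4e-08). Patj (0.80 ± 0.17) and Cldn9 (0.95 ± 0.20) were also higher, and Cldn12 fell by 0.59 on the log2 scale (SE 0.07).

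Vim (ENSMUSG00000026728; chromosome 2, 13573927 to 13582826, plus strand), the main filament protein of mesenchymal cells and of many cultured lines, had 2186.3, 2124.1, 2166.3 and 2150.2 CPM in knockout libraries, against 2026.2, 2200.9, 2117.3 and 2063.3 CPM in wild-type libraries. Wild-type replicate 2 was the highest library of all, so the groups overlapped. The log2 fold change was 0.04 ± 0.04 (95% interval -0.04 to 0.11; adjusted p = 0.422), an interval whose bounds are small against the changes of Epcam and Snai2. With library totals alone as the scaling it passed, at an adjusted p of 0.0105, and with upper-quartile scaling at 0.0383. Most of its counts, 96.3% to 96.9% in knockout and 94% to 97.1% in wild-type libraries, were on Vim-201. Vim was 1.36 ± 0.065 times the summed TPM of Krt8 and Krt18 in knockout libraries and 1.39 ± 0.0978 times in wild-type libraries, with overlap. It held 37% ± 0.709 of the TPM of 66 intermediate filament genes in knockout and 37.2% ± 1.64 in wild-type libraries.

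Of 13 other intermediate filament genes, Vim included, 10 were tested. Of the 10, 4 were higher and 4 lower (median log2 fold change 0.05), beside 23.6% of all tested genes in each direction. Desmin (Des), the muscle filament, reached 7.93 ± 1.03 CPM in knockout libraries, against 2.37 ± 0.14 CPM in wild-type libraries (1.74 ± 0.13). The neurofilament light chain gene Nefl reached 11.8 ± 1.32 CPM in knockout libraries, against 4.28 ± 0.487 CPM in wild-type libraries (1.46 ± 0.12), and Nefh was higher too (3.11 ± 0.64). The neuronal filament gene Ina fell to 0.0253 ± 0.0505 CPM in knockout libraries, against 1.65 ± 0.406 CPM in wild-type libraries (-5.93 ± 0.71).

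While Vim and Cdh2 did not pass, 13 other mesenchymal genes were called higher. Of 26 mesenchymal genes, Vim and Cdh2 among them, 21 were tested, 13 were higher, 1 was lower and 7 did not pass, beside 23.6% of all tested genes called in each direction. The median log2 fold change was 0.35, beside 0.004 over all genes tested, and no test of the list was made. Like the other lists, it was chosen with earlier results of these data known. The collagen gene Col3a1 had 429.7, 414.5, 424.8 and 445.3 CPM in knockout libraries, against 113.3, 102.8, 107.7 and 103.5 CPM in wild-type libraries (4.01-fold higher, adjusted p = 5.82e-12). S100a4, a calcium-binding protein of motile cells, reached 604.2 ± 51.3 CPM in knockout libraries, against 150.0 ± 27.4 CPM in wild-type libraries (2.01 ± 0.11; median of its chromosome 3 neighbors 0.38). Sparc, a matrix protein, reached 826.8 ± 26.8 CPM in the knockout, against 461.9 ± 35.5 CPM in the wild type (0.84 ± 0.05), and the receptor tyrosine kinase gene Axl 528.8 ± 15 CPM in the knockout, against 301.6 ± 13.7 CPM in the wild type (0.81 ± 0.04). Fibronectin (Fn1) reached 262.5 ± 39.6 CPM in knockout libraries, against 110.8 ± 8.64 CPM in wild-type libraries (1.24 ± 0.09). The exception was the matrix protease gene Mmp2, which fell to 0.172 ± 0.0753 CPM in knockout libraries, against 2.13 ± 0.309 CPM in wild-type libraries (-3.59 ± 0.33).

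Markers of fibroblasts and stellate cells moved in part with this group. Of 8 such markers 6 were tested and 4 were higher, beside 23.6% of all tested genes called higher. The 4 were Col1a1, Col1a2, Acta2 and Des, of which all but Des are also in the mesenchymal list. The other tested markers, the growth factor receptor genes Pdgfra and Pdgfrb, did not pass and had negative log2 fold changes. Pdgfra had 1.13 ± 0.278 CPM in knockout and 1.71 ± 0.407 CPM in wild-type libraries (-0.60 ± 0.25, adjusted p = 0.0687), and Pdgfrb had 13 counts summed over the knockout and 48 over the wild-type libraries (-1.85 ± 1.07, adjusted p = 0.178). Dcn had 5 counts in the knockout and 0 in the wild-type libraries and was not tested. The 8 summed to 17.1 to 18.6 CPM in knockout and 5.87 to 7.22 CPM in wild-type libraries, Lum was at 0 in all libraries, and their part in the higher levels of mesenchymal genes was not tested. Col1a2 had 5.35 ± 0.592 CPM in knockout and 0.437 ± 0.263 CPM in wild-type libraries (3.59 ± 0.32, adjusted p = 1.06e-06).

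**Figure D4:**
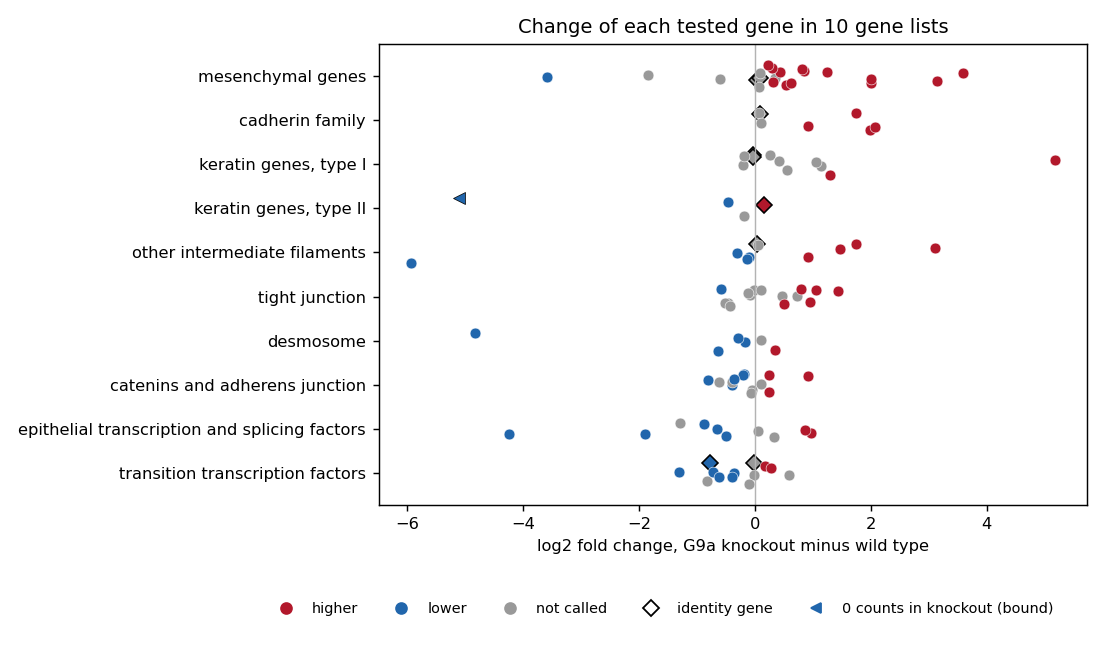
Log2 fold change, knockout minus wild type, of every tested gene in 10 gene lists. Red points were called higher, blue points lower and grey points not called, diamonds mark the identity genes, and the triangle is Krt79 at its bound of -5.10; the mesenchymal list holds 13 red and 1 blue point, and the list of transition transcription factors 2 red and 6 blue.

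Of the pair of transition repressors, Snai2 fell and Zeb1 did not pass. Snai2 (ENSMUSG00000022676; chromosome 16, 14705852 to 14709385, plus strand), also called Slug, had 1.52, 1.04, 1.35 and 1.01 CPM in knockout libraries, against 2.23, 1.91, 2.36 and 1.9 CPM in wild-type libraries. Every knockout library was below every wild-type library, with means of 1.23 ± 0.247 CPM in the knockout and 2.1 ± 0.233 CPM in the wild type (SD, n = 4 each). The log2 fold change was -0.77 ± 0.20 (95% interval -1.22 to -0.33; edgeR, adjusted p = 0.0067), on 72 to 117 counts per knockout library and 120 to 163 per wild-type library.

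Zeb1 (ENSMUSG00000024238; chromosome 18, 5591860 to 5775467, plus strand), a repressor of Cdh1 with zinc fingers at both ends, had 47.5, 50.4, 50.5 and 46.0 CPM in knockout libraries, against 43.3, 54.4, 53.7 and 45.2 CPM in wild-type libraries. The wild-type libraries lay on either side of all knockout libraries. The log2 fold change was -0.02 ± 0.08 (95% interval -0.18 to 0.15; adjusted p = 0.874), and its sign turned with the scaling and with the library left out. Of the counts, 98% or more in each library were on Zeb1-201.

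Of 14 transition transcription factors, Snai2 and Zeb1 included, 13 were tested. Of the 13, 2 were higher and 6 lower (median log2 fold change -0.36), beside 23.6% of all tested genes in each direction. Sox4 fell to 57.7 ± 3.52 CPM in knockout libraries, against 94.9 ± 4.95 CPM in wild-type libraries (-0.72 ± 0.06, adjusted p = 3.33e-07). Hmga2, a chromatin protein that acts upstream of the Snail genes, had 65.4 ± 2.67 CPM in knockout and 99.9 ± 6.02 CPM in wild-type libraries (-0.61 ± 0.05), and Foxc2 2.39 ± 0.268 CPM in the knockout and 5.9 ± 0.738 CPM in the wild type (-1.30 ± 0.14). Zeb2, the paralog of Zeb1, fell by 0.40 on the log2 scale (SE 0.08), with a median of -0.35 among its chromosome 2 neighbors. Snai1, the paralog of Snai2, fell by 0.36 (SE 0.09). Snai1 also lies on chromosome 2, and the median of its neighbors was not computed. The 2 higher genes were Twist2 (0.18 ± 0.06) and Tcf4 (0.27 ± 0.05), while Twist1, at 45.7 ± 3.03 CPM in knockout and 46.3 ± 3.02 CPM in wild-type libraries, did not pass.

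Genes of corepressors through which Snail and Zeb factors act were all expressed as RNA. Of 14 listed and tested, 3 were higher and 7 lower (median log2 fold change -0.10), Ehmt2 itself among the lower. Over all tested genes 23.6% were called in each direction. Ctbp1, a partner of Zeb1, was higher at 324.7 ± 8.88 CPM in knockout and 230.1 ± 14 CPM in wild-type libraries (0.50 ± 0.05; median of its chromosome 5 neighbors 0.37). Ctbp2 (-0.18 ± 0.05), Rcor1 (-0.44 ± 0.06), Sin3a (-0.30 ± 0.05) and the histone methyltransferase gene Suv39h1 (-0.21 ± 0.04) were lower.

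Genes of transcription and splicing factors of epithelial cells were split. Of 18 listed 10 were tested. Of the 10, 2 were higher and 5 lower (median log2 fold change -0.58), beside 23.6% of all tested genes in each direction. Esrp1, a splicing factor of epithelia, had 0 counts in all libraries. Cdx2, an intestinal factor, fell to 0.691 ± 0.332 CPM in knockout libraries, against 13.1 ± 1.28 CPM in wild-type libraries (-4.24 ± 0.24), in a stretch of chromosome 5 whose neighbors had a median of 0.37. The liver factor gene Foxa2 fell to 6.31 ± 0.34 CPM in knockout libraries, against 11.5 ± 1.68 CPM in wild-type libraries (-0.87 ± 0.11; median of its chromosome 2 neighbors -0.66). Grhl2, which activates Cdh1 and represses Zeb1 in epithelia, was higher, at 14.2 ± 1.99 CPM in knockout and 7.3 ± 0.586 CPM in wild-type libraries (0.96 ± 0.11, adjusted p = 8.06e-06), as was Elf3 (0.87 ± 0.11). Cdh1 had too few counts to be tested and Zeb1 did not pass in the same libraries, and a link of Grhl2 to either was not tested.

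Since the neighbors of several genes above had shifted medians, each identity gene was set beside its own. The medians of the 20 nearest tested genes on each side (fewer at chromosome ends) lay between -0.11 and 0.01 on the log2 scale for all 10 genes. Epcam was lower than its neighbors by 1.82 and Snai2 by 0.77, and Krt8 was above its neighbors by 0.27. Krt18, in nearly the same stretch with a median of -0.11, was 0.07 above its neighbors. With 10 neighbors on each side the median for Krt19 was 0.27 instead of -0.04, and those for Krt8 and Krt18 were -0.19.

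**Figure D5:**
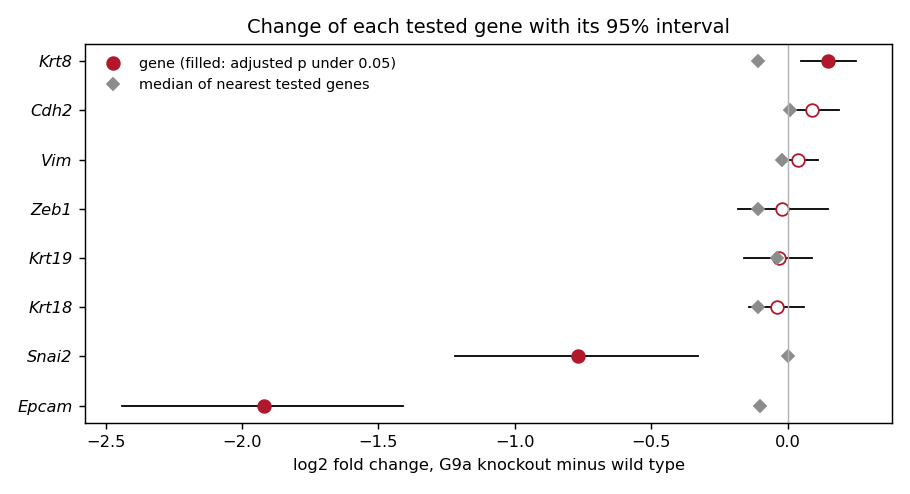
Log2 fold change of the 8 tested identity genes, knockout minus wild type, with 95% intervals (lines) and, as grey diamonds, the median log2 fold change of the nearest tested genes. Filled circles passed an adjusted p of 0.05; Epcam at -1.92 and Snai2 at -0.77 lie far from their neighbors, and Krt8 at 0.15 lies above its neighbors at -0.11.

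The genes whose 8 values ran most like those of each called gene were sought among 9139 tested genes that reached 10 CPM in either group, by the distance between log2 CPM values centred on each gene's mean. For Epcam they were Hoxd9, Tiam1 and Trib3 (distances 0.878, 0.973 and 1.11), whose log2 fold changes were -1.66 ± 0.13, -2.24 ± 0.14 and -1.65 ± 0.08. For Snai2 they were Larp1b, Hoxd8 and Gpcpd1 (0.379, 0.384 and 0.415), with log2 fold changes of -0.72 ± 0.07, -0.66 ± 0.07 and -0.72 ± 0.10. For Krt8 they were Akr1a1, Hagh and Agpat1 (0.0837, 0.085 and 0.0854), with log2 fold changes of 0.10 ± 0.05, 0.14 ± 0.06 and 0.15 ± 0.04. Likeness over 8 libraries of 2 groups mostly reflects the group difference and is given as a description.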

How the data were processed

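The members and gene lists were chosen with earlier results of these data known. Per the labels' protocols, RNA was extracted with TRIzol and poly-A libraries were made with a SMARTer kit. FastQC, Trimmomatic, HISAT2 and GRCm38.p6 are named in the submitters' processing notes. How reads were counted, with or without strand, is not given in the sources used here, so reads of overlapping or near-identical genes may be misassigned. The authors deposited whole-number counts per transcript, not normalized, as the values show. Of 115220 transcripts 114332 (99.23%) matched GENCODE mouse release 21 and were summed to 47434 genes; unmatched transcripts held 0.148% to 0.17% of a library.

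All 8 libraries were compared with edgeR 4.0.16 in R 4.3.3 (quasi-likelihood F test, two-sided, TMM, filterByExpr, genotype as the only term), with Benjamini-Hochberg adjustment over 15840 genes. Genes at an adjusted p under 0.05 are called "higher" or "lower". Intervals are 95% and use the test's degrees of freedom. TPM were computed from the transcript counts and annotated lengths, without TMM. The code was tested on simulated data. Totals of 58256100 to 75025236 counts put 3 counts at 0.04 to 0.0515 CPM. Replicate numbers did not pair the libraries.

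Named genes were Ehmt2, the 10 members and, per list, up to 4 further genes with the lowest p (up to 2 for lists of other cell types). Fn1, Mmp2, Snai1, Tcf4, Twist1, Twist2, Esrp1, Pdgfra, Pdgfrb, Dcn, Csf1r and Ctbp2 were named after their values were seen. Krt85, Eppk1 and Pals1 were listed but not analysed here. Alternatives were DESeq2 1.42.0, limma-voom (limma 3.58.1), 3 other scalings, 2 other filters, a replicate block, protein-coding transcripts only, each library left out, other transcript lengths and fewer neighbors. Sequences are RefSeq windows, which 5 of the 10 members matched.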

Additional observations from a re-analysis of the deposited data

Results flagged for a closer look

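Of 18 groups of 4 values checked, 1 held a library far from the others, and chance flags about 1 in 20. The Epcam level in knockout replicate 2 was 0.607 CPM, while the other knockout libraries lay between 1.43 and 1.48 CPM. Its gap to the nearest library was 0.94 of the group's range, above Dixon's 95% critical value for 4 samples. Without that library the log2 fold change of Epcam, knockout minus wild type, was -1.69, against -1.92 with it, and Epcam was still called lower.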

How the results depend on the processing

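Epcam (log2 fold change -2.02 to -1.69) and Snai2 (-0.9 to -0.69) stayed lower and past the threshold in all 16 alternatives that tested them; with genes of at least 5 CPM neither was tested, so 0 identity genes were called lower. Krt8 (0.12 to 0.23) kept its call in 16 of 17 alternatives and lost it without knockout replicate 4. Identity genes called higher numbered 2 with DESeq2 and with genes of at least 5 CPM, 3 with library totals alone and with upper-quartile scaling, and 0 to 1 when each library was left out. Those scalings moved the median of all genes to 0.084 and 0.062, and with library totals alone 62.4% of calls were higher, against 50.1%. The sign turned for genes not called: Krt18 was at 0.04 with library totals and 0.02 with upper-quartile scaling; Krt19 at 0.04, 0.02 and, with genes of at least 5 CPM, 0.0024; Zeb1 at 0.06, 0.04 and 0.02. Leaving out each library gave -0.08 to 0.001 for Krt19, -0.08 to 0.04 for Zeb1 and -0.34 to 0.12 for the hepatocyte marker Apoa2. Fbf1, called lower at -0.20, was at 0.18 with protein-coding transcripts only. The cause of these shifts was not tested. With a replicate block 7255 genes were called, against 7476, and 1 identity gene higher and 2 lower; correlations of same-numbered libraries were -0.28, 0.08, 0.38 and 0.13, and 2 of 4 knockout libraries correlated best with their own number. Of 1030 values for 62 other genes, 991 kept direction and side of the threshold. With the longest transcript as length 8 of 20 mean TPM moved by more than 1 SD, and with 10 neighbors 6 of 10 medians moved. Cdh1 had too few counts for the main test, and Krt7 had 0 in all libraries. Levels below what this depth can detect were not measured.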
